A study of Mus musculus with 6 samples.

Results

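The BCL2 family sets the threshold at which a lymphocyte dies through its mitochondria. The 10 members studied here were the genes listed as Bcl2, Bcl2l1, Mcl1, Bcl2l11, Bax, Bak1, Bbc3, Pmaip1, Bad and Bid, chosen by symbol, and all 10 were found among the 24589 genes of the deposited table. They were measured by bulk RNA-seq in primary CD8+ T cells of wild-type (WT) C57BL/6 mice, purified on magnetic beads from spleen and lymph nodes, activated through CD3 and CD28. The activated cells then spent 24 h in trans-vaccenic acid at 20 µM (TVA, which ruminant milk and meat supply) or in its solvent DMSO, with 3 libraries for each, making 6. Both groups shared the activation and differed only in the lipid, no unactivated cells are in the comparison, and the age of the mice was given only as a range for the whole study. The labels do not say whether libraries of a group came from separate mice or cultures, so the p-values measure the spread between these libraries, which may be technical.

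Survival proteins of the family (BCL-2, BCL-xL from Bcl2l1, and MCL-1) hold the effectors BAX and BAK in check at the outer mitochondrial membrane. When the effectors are released they form pores, cytochrome c leaves the mitochondria and caspases are switched on. BH3-only proteins such as BIM (Bcl2l11), PUMA (Bbc3), NOXA (Pmaip1), BAD and BID report stress or cytokine loss by binding the survival proteins or the effectors. Activated T cells are known to rely on MCL-1 and BCL-xL while they divide, and BIM is known for ending T cell responses when cytokines are withdrawn. The study reported less apoptosis, more BCL-2 and less active caspase-3 in CD8+ T cells treated with TVA. The comparison here asks whether the transcripts of these genes, not their proteins, differed between TVA and DMSO.

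The libraries themselves set a limit. On the first principal component of all genes tested, which held 59.1% of the variance, the TVA libraries lay between 8.80 and 10.8 and DMSO replicates 1 and 3 at -18.2 and -12.8, whereas DMSO replicate 2 lay at 1.23, nearer to TVA. All 7 markers listed for CD8 T cells were above 1 TPM in every library, with a summed level of 1985 to 2171 TPM with DMSO and 2270 to 2313 TPM with TVA. The sum includes Cd3d, Cd3e, Cd3g, Cd247 and Thy1, which other T cells also express. Cd8a had means of 284 TPM with DMSO and 314 TPM with TVA, and Cd8b1 of 319 and 312 TPM. The 7 myeloid markers summed to 56.1 to 63.5 TPM and 68.3 to 73.2 TPM, the 4 CD4 T cell markers to 15.1 to 16.2 and 12.2 to 14.2 TPM, the 6 B cell markers to 11.3 to 14.9 and 10.7 to 11.1 TPM, and the 4 NK cell markers to 2.35 to 3.05 and 2.70 to 3.43 TPM. No marker was at 0 in every library, Cd3g and Lyz2 rose and Cd40lg fell (limma adjusted p 0.00627, 0.00757 and 0.0301), and the part of other cells in the results was not tested. In such bulk samples, fewer cells of a type and less RNA per cell cannot be told apart. Sequencing depth is unknown because the values are TPM, a measure of transcript abundance scaled by gene length and by library.

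The members were present at very different levels. TPM is scaled by gene length, which allows a rough comparison of levels between genes. It is not corrected for GC content, which ran from 41.5% (Pmaip1) to 68.0% (Bbc3) among the members. Some members also share exonic sequence with other genes. With DMSO the effector gene Bax was highest, at 552 ± 31.3 TPM (SD, n = 3), followed by the survival gene Mcl1 at 231 ± 18.4 TPM and the survival gene Bcl2l1 at 104 ± 11.97 TPM. Bak1 (66.6 ± 3.85 TPM), Bbc3 (62.3 ± 15.4 TPM), Pmaip1 (47.3 ± 3.26 TPM), Bcl2 (43.95 ± 0.306 TPM), Bid (43.1 ± 3.53 TPM) and Bcl2l11 (38.4 ± 0.713 TPM) formed a middle group, and Bad was lowest at 10.52 ± 1.51 TPM. The ranges of neighbours overlapped for Bak1 and Bbc3, Bbc3 and Pmaip1, Pmaip1 and Bcl2, and Bcl2 and Bid, so the order among these was not resolved beyond the spread of the libraries. Levels with TVA kept this order, with 1 large exception and 1 small one. Bbc3 moved from rank 5 to rank 8, and Bid and Bcl2, whose TVA values overlapped, changed places. The TVA values of Bbc3 overlapped those of Bcl2, Bid and Bcl2l11. Among these 10 genes Mcl1 was the most abundant survival transcript in both groups, and Bax the most abundant death transcript.

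**Figure D1:**
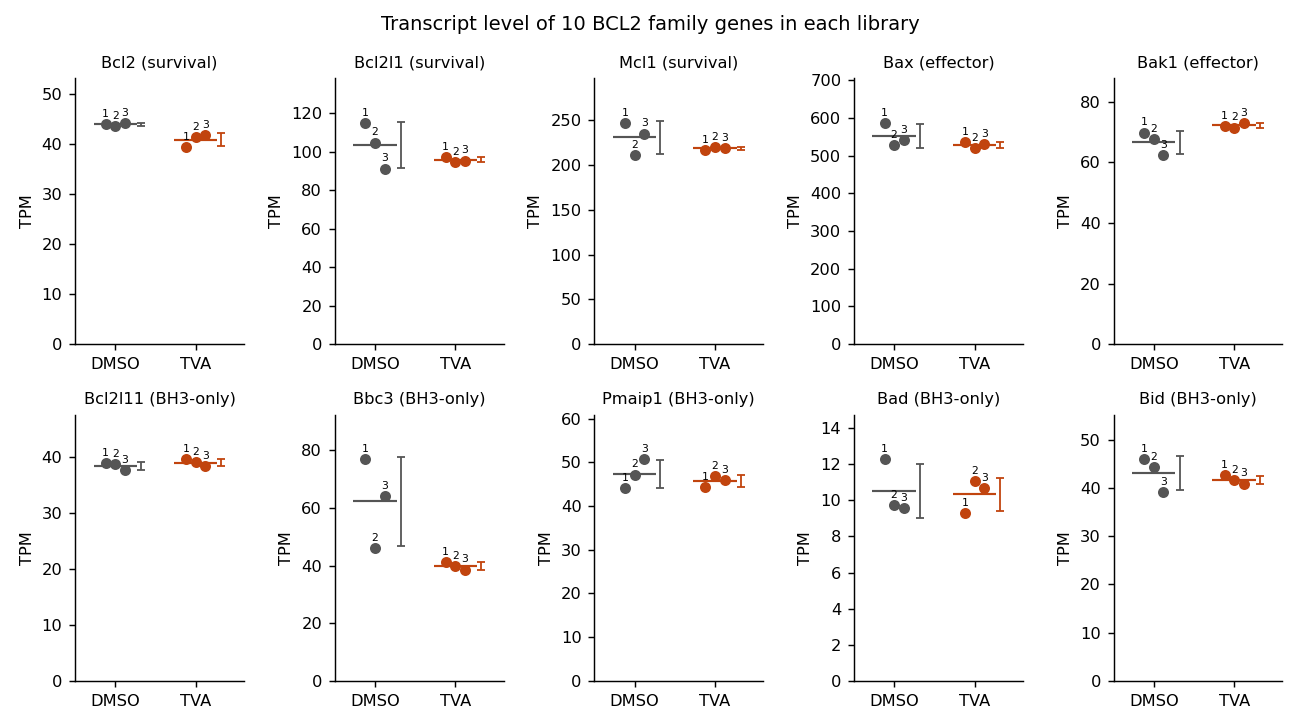
TPM (y axis, from 0) of each of the 10 genes in the 3 DMSO and 3 TVA libraries, with replicate numbers, group means (lines) and SD (bars). Bbc3 shows the widest DMSO spread relative to its mean, from 46.1 to 76.8 TPM, and a tight TVA group between 38.6 and 41.2 TPM.

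With all 6 libraries, none of the 10 genes passed the threshold of an adjusted p under 0.05 (limma, log2(TPM + 1), Benjamini-Hochberg over 10866 genes), against 8.51% of all genes tested. At an unadjusted p under 0.05 there were 3 of 10 (Bcl2, Bak1 and Bbc3), against 31.8% of all genes. The groups did not overlap for the same 3 genes (38.6% of all genes), Bak1 higher (27.3% of all genes) and Bcl2 and Bbc3 lower (11.2% of all genes). After a correction for the GC content of transcripts 2 of 10 passed (10.3% of all genes), and without DMSO replicate 2 there were 2 of 10 (20.5% of all genes), with adjusted p-values of 0.127 to 0.819 for the other 8. All 10 members passed the filter on low values. Of the 10 fitted changes, 8 were negative and 2 positive, with a median log2 change of -0.05 against 0.04 over all genes tested. A p that misses the threshold does not show that levels were equal, and the 95% intervals below give the sizes that these libraries leave possible.

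**Figure D2:**
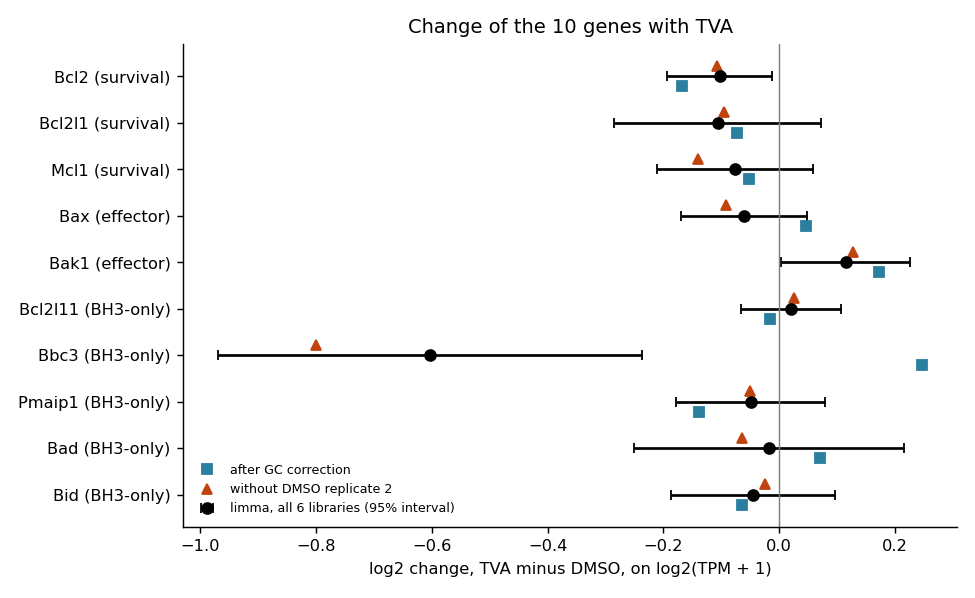
Log2 change between TVA and DMSO (x axis) of each of the 10 genes, with 95% intervals from limma (circles), the value after a correction for GC content (squares) and the value without DMSO replicate 2 (triangles). Bbc3 lies at -0.60, at -0.80 without DMSO replicate 2 and at 0.25 after the GC correction, while the other 9 genes stay between -0.17 and 0.17.

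Among the survival genes, Bcl2 had the tightest DMSO libraries. It had 44.0, 43.6 and 44.2 TPM in the DMSO libraries, against 39.4, 41.4 and 41.8 TPM in the TVA libraries. Each TVA library lay below every DMSO library, by a small margin. The ratio of the means was 0.930 and the log2 change -0.10 (SE 0.039, 95% interval -0.19 to -0.01, limma adjusted p 0.122). After the GC correction the log2 change was -0.17 and Bcl2 passed as lower (limma adjusted p 0.0179), against adjusted p-values of 0.0793 to 0.286 under the other alternatives. The study reported more BCL-2 with TVA, the opposite direction to this small transcript difference. Protein was not measured in these libraries, and the cause of the difference was not tested. An antisense gene, D630008O14Rik, shares exonic sequence with Bcl2 on the opposite strand, and whether reads were counted by strand is not given in the sources used here.

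Bcl2l1, which encodes BCL-xL, had 115, 105 and 91.2 TPM in the DMSO libraries, against 97.4, 94.7 and 95.4 TPM in the TVA libraries. The TVA values fell inside the DMSO range. The log2 change was -0.11 (95% interval -0.28 to 0.07, limma adjusted p 0.367). It was -0.03 without DMSO replicate 1 and -0.19 without DMSO replicate 3 (limma adjusted p 0.756 and 0.0870). Splicing of this gene yields a long form that protects cells and a short form that promotes death, and a value per gene does not separate them. The gene of MCL-1, a short-lived protein, had 247, 211 and 235 TPM in the DMSO libraries, against 217, 220 and 219 TPM in the TVA libraries. DMSO replicate 2 lay below the TVA libraries and the other DMSO libraries above them. The log2 change of Mcl1 was -0.08 (95% interval -0.21 to 0.06, limma adjusted p 0.387), and 1 library moved it: it was -0.14 and passed as lower without DMSO replicate 2 (limma adjusted p 0.0408), and -0.03 without DMSO replicate 1 (limma adjusted p 0.725).

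Of the effector genes, Bax had 587, 528 and 541 TPM in the DMSO libraries, against 535, 520 and 531 TPM in the TVA libraries. The groups overlapped, and DMSO replicate 1 stood highest. The log2 change was -0.06 (95% interval -0.17 to 0.05, limma adjusted p 0.397), and it turned to 0.05 after the GC correction (limma adjusted p 0.399). Bak1, the gene of the other effector, had 69.8, 67.7 and 62.3 TPM in the DMSO libraries, against 71.9, 71.4 and 73.0 TPM in the TVA libraries. Each TVA library was above every DMSO library. The ratio of the means was 1.08 and the log2 change 0.11 (SE 0.048, 95% interval 0.0033 to 0.23, limma adjusted p 0.149). Bak1 passed as higher after the GC correction (limma: adjusted p 0.0334 for a log2 change of 0.17) and under no other alternative (0.0678 to 0.361). It shares exonic sequence with Ggnbp1 on the opposite strand, and Bax with Gm45808 on its own strand, so reads of these stretches may be split between the genes.

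Of the BH3-only genes, Bcl2l11 varied least. It had 38.9, 38.7 and 37.6 TPM in the DMSO libraries, against 39.5, 39.0 and 38.3 TPM in the TVA libraries. The groups overlapped. The log2 change was 0.02 (95% interval -0.07 to 0.11, limma adjusted p 0.735). The interval bounds any shift of BIM transcripts in these libraries more tightly than that of Bcl2l1, Mcl1 or Bad.

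Pmaip1, which encodes NOXA, the partner that targets MCL-1, had 44.1, 47.2 and 50.7 TPM in the DMSO libraries, against 44.3, 46.9 and 45.9 TPM in the TVA libraries. The log2 change was -0.05 (95% interval -0.18 to 0.08, limma adjusted p 0.568). Bid, whose protein is cut by caspase-8 and links death receptors to mitochondria, had 45.9, 44.3 and 39.1 TPM in the DMSO libraries, against 42.6, 41.5 and 40.9 TPM in the TVA libraries. The TVA values of both genes lay within the DMSO range. The log2 change of Bid was -0.04 (95% interval -0.19 to 0.10, limma adjusted p 0.638). Bad, which is held inactive by phosphorylation downstream of growth signals, had 12.3, 9.74 and 9.55 TPM in the DMSO libraries, against 9.31, 11.04 and 10.7 TPM in the TVA libraries. Its groups overlapped, and its interval of -0.25 to 0.22 was wide (limma: adjusted p 0.918 for a log2 change of -0.02). Bid shares exonic sequence with Bcl2l13, and Bad with Gpr137, both on the opposite strand.

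Bbc3 differed most between the groups and also within one of them. It encodes PUMA, a potent BH3-only protein that p53 and FOXO factors are known to induce. The gene lies on the plus strand at chr7:16308393-16318205 (GRCm38, which is mm10). It had 76.8, 46.1 and 64.0 TPM in the DMSO libraries, against 41.2, 39.7 and 38.6 TPM in the TVA libraries. The TVA libraries were all lower than every DMSO library, but DMSO replicate 2 lay much nearer to them than to the other DMSO libraries. The highest DMSO value was 1.66 times the lowest, against 1.07 times with TVA, and over all genes tested the medians of these ratios were 1.12 and 1.06. Means (± SD, n = 3) were 62.3 ± 15.4 TPM for DMSO and 39.8 ± 1.35 TPM for TVA, a ratio of 0.639. The log2 change was -0.60 (SE 0.16, 95% interval -0.97 to -0.24, limma adjusted p 0.0553), just short of the threshold.

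That call turned on single choices. Without DMSO replicate 2 the log2 change was -0.80 and Bbc3 passed (limma adjusted p 0.000654). Quantile normalization (limma adjusted p 0.0447) and scaling by median ratios (0.04996) also brought it past the threshold. With any other library left out the adjusted p was 0.0616 to 0.181 and the log2 change -0.63 to -0.44. After the GC correction the sign turned, to 0.25 (limma adjusted p 0.299).

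GC content moved with this result. The median GC content of Bbc3 transcripts was 68.0% (65.2% to 73.2% over 4 annotated transcripts), and only 7 of 10588 genes with a value, Bbc3 included, were as high or higher. The 36 genes tested with a GC content of 65% or more had a median log2 change of -0.65 between TVA and DMSO, close to the -0.60 of Bbc3. The same 36 genes differed within the DMSO group, with a median of 0.99 between replicates 1 and 2 and 0.78 between replicates 3 and 2, where Bbc3 had 0.72 and 0.46. Between the TVA mean and DMSO replicate 2 their median was -0.08, where Bbc3 had -0.21. In the range from 45% to 50% the corresponding median between TVA and DMSO was 0.07. With so few genes at the upper end, the GC correction is poorly determined for Bbc3. The other members had GC contents from 41.5% (Pmaip1) to 59.1% (Bax).

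**Figure D3:**
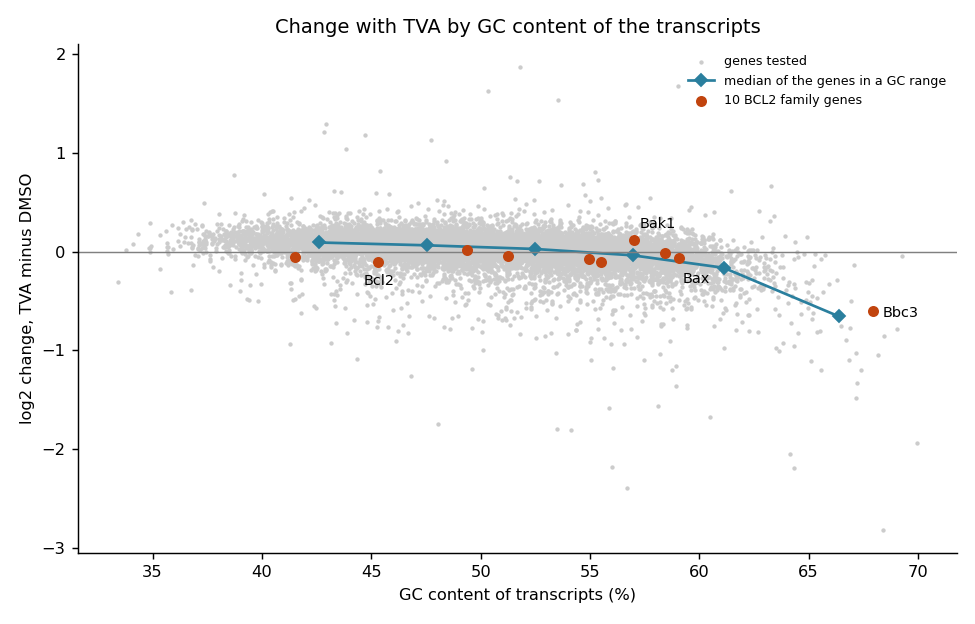
Log2 change between TVA and DMSO (y axis) against the GC content of transcripts (x axis, %) for the genes tested (grey), the median of the genes in each of 6 GC ranges (diamonds) and the 10 BCL2 family genes (orange-red). Bbc3, at 68.0% GC and -0.60, lies near the median of -0.65 of the genes at 65% or more, and Bak1 lies above and Bcl2 below the medians of their ranges.

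The genes whose pattern over the 6 libraries was most like that of Bbc3 were Phlda3, Jun, Ier5, Gadd45gip1 and Ptpn18, by the root mean square difference of centred log2(TPM + 1) among 8934 genes. The differences were 0.030, 0.040, 0.041, 0.048 and 0.051. In the same order, their transcripts had a GC content of 58.4%, 55.5%, 52.3%, 54.9% and 56.1%. Their log2 changes were -0.58, -0.53, -0.58, -0.53 and -0.60. The median over genes tested was 0.03 from 50% to 55% GC and -0.04 from 55% to 60%. The relation of their pattern to GC content was not tested. Phlda3, itself a known p53 target, had 171, 103 and 142 TPM in the DMSO libraries, against 91.0, 88.7 and 90.8 TPM in the TVA libraries. Jun, an AP-1 subunit, had 65.4, 39.2 and 55.7 TPM and 37.6, 36.1 and 34.2 TPM. The 5 genes were chosen for this pattern, so their values are a description.

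The promoters of the 3 genes whose groups did not overlap are shown because the study centres on CREB, a factor that binds the cAMP response element (CRE). The windows run from 250 bases before an annotated start to 50 bases after it (RefSeq, GRCm38.p6) and are written 5′ to 3′ on the strand of the gene, with capitals for the CRE half-site TGACG and for the GC box GGGCGG on either strand.
Bbc3, chr7:16309333-16309632, plus strand: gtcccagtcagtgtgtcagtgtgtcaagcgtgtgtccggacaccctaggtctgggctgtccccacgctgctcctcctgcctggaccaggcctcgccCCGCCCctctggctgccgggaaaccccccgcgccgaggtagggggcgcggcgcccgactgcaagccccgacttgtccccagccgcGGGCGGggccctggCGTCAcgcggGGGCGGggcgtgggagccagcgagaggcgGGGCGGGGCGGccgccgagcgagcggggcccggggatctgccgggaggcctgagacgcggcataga
Bcl2, chr1:106714241-106714540, minus strand: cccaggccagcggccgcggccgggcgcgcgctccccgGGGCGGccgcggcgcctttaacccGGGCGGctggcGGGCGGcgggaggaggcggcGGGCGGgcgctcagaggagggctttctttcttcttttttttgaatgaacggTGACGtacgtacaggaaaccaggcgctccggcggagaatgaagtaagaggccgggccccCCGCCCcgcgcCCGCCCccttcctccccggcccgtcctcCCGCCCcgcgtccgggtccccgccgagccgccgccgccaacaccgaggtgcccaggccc
Bak1, chr17:27028578-27028877, minus strand: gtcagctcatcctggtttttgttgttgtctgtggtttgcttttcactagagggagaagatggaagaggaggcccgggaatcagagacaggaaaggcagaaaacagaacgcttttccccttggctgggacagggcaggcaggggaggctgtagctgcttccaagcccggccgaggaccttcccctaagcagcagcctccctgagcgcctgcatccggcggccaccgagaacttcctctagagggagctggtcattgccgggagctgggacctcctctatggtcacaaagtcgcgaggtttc
The Bbc3 window, the first of 3 annotated starts, was 76.0% GC, as was that of Bcl2, against 58.3% for Bak1 and a median of 52.7% over 32851 windows. A CRE half-site began at base 196 of the Bbc3 window (minus strand) and at base 144 of the Bcl2 window (plus strand), and none was in the Bak1 window. GC boxes numbered 5, 7 and 0. Of 9 members matched to the table (Pmaip1 was not), 3 held a CRE half-site, the other being Mcl1 at base 267 on the minus strand, which is 3 of their 15 windows against 20.8% of all windows. A GC box was in 7 members and 10 of 15 windows, against 35.7% of all. The full CRE TGACGTCA, which contains the half-site, was in none of the 15 (1.79% of all), nor was the TATA box TATAAA (13.6%), and the CCAAT box CCAAT was in 4 of them (37.4%). Bases are counted from 1 at the 5′ end of a window. A p53 half-site, by its consensus, began at base 50 of the Bax window and was in no other of the 15 windows (8.36% of all). Pmaip1 was not searched. A match is a run of letters, not a bound site.

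Ratios within a library do not change when the library is multiplied by a factor, and they set each survival gene against a partner. Mcl1 to Bbc3 was 3.22, 4.58 and 3.67 with DMSO and 5.26, 5.55 and 5.67 with TVA, a 1.44-fold difference of the means that carries the spread and GC content of Bbc3. Bcl2l1 to Bak1 was 1.65, 1.55 and 1.46 with DMSO and 1.35, 1.33 and 1.31 with TVA, 0.855-fold. Bcl2 to Bcl2l11 was 1.13, 1.13 and 1.18 with DMSO and 0.998, 1.06 and 1.09 with TVA, 0.917-fold. For these 3 ratios the groups did not overlap. The log2 change of Mcl1 to Bbc3, 0.52, turned to -0.35 after the GC correction, with overlapping groups, while those of Bcl2l1 to Bak1 (-0.23) and Bcl2 to Bcl2l11 (-0.13) became -0.25 and -0.15. No direction of Mcl1 to Bbc3 is therefore given. Bcl2 to Bax (0.0798 ± 0.0043 and 0.0774 ± 0.0032, SD, n = 3) and Mcl1 to Pmaip1 (4.90 ± 0.609 and 4.79 ± 0.104) overlapped. The 3 survival genes together were 0.465, 0.460 and 0.461 of the 7 death genes with DMSO and 0.452, 0.463 and 0.457 with TVA. The groups overlapped there too, with means of 0.462 ± 0.0024 and 0.457 ± 0.0059, but after the GC correction every TVA library was lower (log2 change -0.12, against -0.01), as for Bcl2 to Bax (-0.22, against -0.05). Mcl1 to Pmaip1 went the other way, with every TVA library higher after the correction (0.087, against -0.034). No test was run on the ratios, since the members were chosen with results known.

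**Figure D4:**
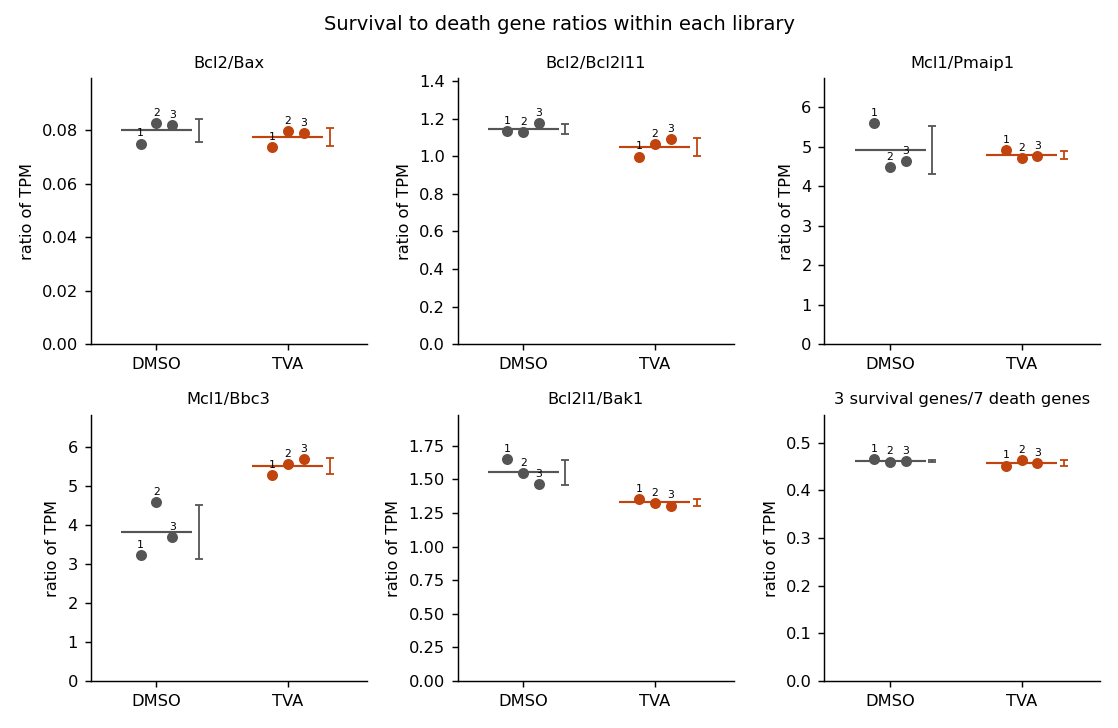
Ratio of TPM within each library (y axis, from 0) for 5 pairs of a survival and a death gene and for the sums of 3 survival and 7 death genes, with replicate numbers, group means (lines) and SD (bars). Bcl2l1/Bak1 and Bcl2/Bcl2l11 are lower in every TVA library than in any DMSO library, and Mcl1/Bbc3 is higher, but its log2 change of 0.52 turns to -0.35 after the GC correction, which is not drawn. The ratio of the sums overlaps near 0.46.

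Of 19 other genes of the BCL2 family, 12 reached the filter and 1 passed the threshold, against 8.51% of all genes, and their median log2 change was 0.04, as over all genes (0.04). That gene, Bnip3, is a hypoxia-responsive gene of mitophagy with a BH3-like stretch. It fell from 27.01, 32.9 and 30.0 TPM in the DMSO libraries to 24.2, 24.6 and 24.6 TPM in the TVA libraries (limma: adjusted p 0.0480 for a log2 change of -0.28, SE 0.068). The call was lost under 9 of 14 alternatives, with adjusted p up to 0.167. Bcl2a1b and Bcl2a1d, copies of the NF-κB-induced survival gene A1, were the most abundant of the list, with DMSO means of 473 ± 41.9 and 245 ± 17.9 TPM and TVA means of 497 ± 3.88 and 265 ± 11.9 TPM. Their log2 changes were 0.08 and 0.11 (limma adjusted p 0.419 and 0.227). The A1 copies are near-identical, so the split of reads among them is uncertain. Bcl2l10 was listed at 0 in every library.

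Downstream of the mitochondria, 3 of 20 genes passed, 2 higher and 1 lower (5.28% and 3.23% of all genes). The groups did not overlap for 13 of 20 (38.6% of all genes), 11 higher and 2 lower (27.3% and 11.2%). The median log2 change was 0.07. Over all genes tested it was 0.04, with 0.09 below 45% GC and 0.07 from 45% to 50%. The part of GC content in this list was not tested. Casp6, an executioner caspase, fell from 13.99, 12.6 and 13.1 TPM to 11.6, 10.1 and 10.4 TPM (limma: adjusted p 0.0429 for a log2 change of -0.28, SE 0.066). Birc5, the gene of survivin, which serves cell division as well as caspase control, rose from 138, 132 and 134 TPM to 148, 155 and 159 TPM (limma: adjusted p 0.0347 for a log2 change of 0.19). Aifm1, a mitochondrial flavoprotein gene, rose from 42.1 ± 0.781 to 47.0 ± 1.01 TPM (limma: adjusted p 0.0475 for a log2 change of 0.16). The most abundant genes of the list, Vdac2 and Vdac1, which encode channels of the outer membrane, had log2 changes of 0.05 and 0.09 (limma adjusted p 0.359 and 0.115). The 3 calls were all lost without DMSO replicate 3 and whenever any TVA library was left out.

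On the death receptor route, 1 of 12 genes tested passed (8.51% of all genes), and the median log2 change was 0.04. Casp8, the protease that activates BID, rose from 52.6, 55.6 and 53.7 TPM to 61.2, 66.4 and 62.6 TPM (limma: adjusted p 0.0274 for a log2 change of 0.23, SE 0.045), and lost its call without DMSO replicate 3 or any TVA library (up to 0.138). Cflar, which encodes its inhibitor c-FLIP, had 81.5 ± 2.11 and 76.0 ± 2.39 TPM (limma: adjusted p 0.138 for a log2 change of -0.10). Fas had 70.7 ± 2.79 and 75.6 ± 2.17 TPM (limma: adjusted p 0.175 for a log2 change of 0.10).

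Among p53 and its targets outside the members, 3 of 17 passed, 2 higher and 1 lower (5.28% and 3.23% of all genes), with a median log2 change of 0.03. Perp, a membrane protein gene, rose from 39.1, 34.3 and 37.0 TPM to 56.4, 49.7 and 53.9 TPM (limma: adjusted p 0.00646 for a log2 change of 0.52, SE 0.064). Sesn1 rose from 15.0 ± 0.123 to 17.8 ± 0.323 TPM (limma: adjusted p 0.0189 for a log2 change of 0.24), and Sesn2, a stress gene of the same sestrin family, fell from 71.1 ± 7.17 to 58.5 ± 0.831 TPM (limma: adjusted p 0.0492 for a log2 change of -0.27). The abundant targets Cdkn1a and Ccng1 had log2 changes of -0.10 and 0.06 (limma adjusted p 0.169 and 0.240). The p53 targets that passed did not share a direction.

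Of the genes known to act on members, 3 of 23 tested passed, 1 higher and 2 lower (5.28% and 3.23% of all genes), with a median log2 change of 0.03. Il2, the cytokine that sustains survival gene expression in T cells, fell from 500, 517 and 500 TPM to 357, 361 and 362 TPM (limma: adjusted p 0.000723 for a log2 change of -0.49). Stat5a, the transducer of IL-2 signals, fell from 179, 159 and 153 TPM to 126, 126 and 125 TPM (limma: adjusted p 0.0159 for a log2 change of -0.38, SE 0.059). Myb, a transcription factor known to induce Bcl2, rose from 20.0 ± 0.681 to 23.7 ± 0.628 TPM (limma: adjusted p 0.0252 for a log2 change of 0.23). Atf4, the most abundant of the list, had 724 ± 11.9 and 755 ± 3.01 TPM (limma: adjusted p 0.253 for a log2 change of 0.06). Across the 5 lists, 11 genes passed, all 11 kept their direction under the 14 alternatives, and 2 (Il2 and Perp) passed under each of them.

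**Figure D5:**
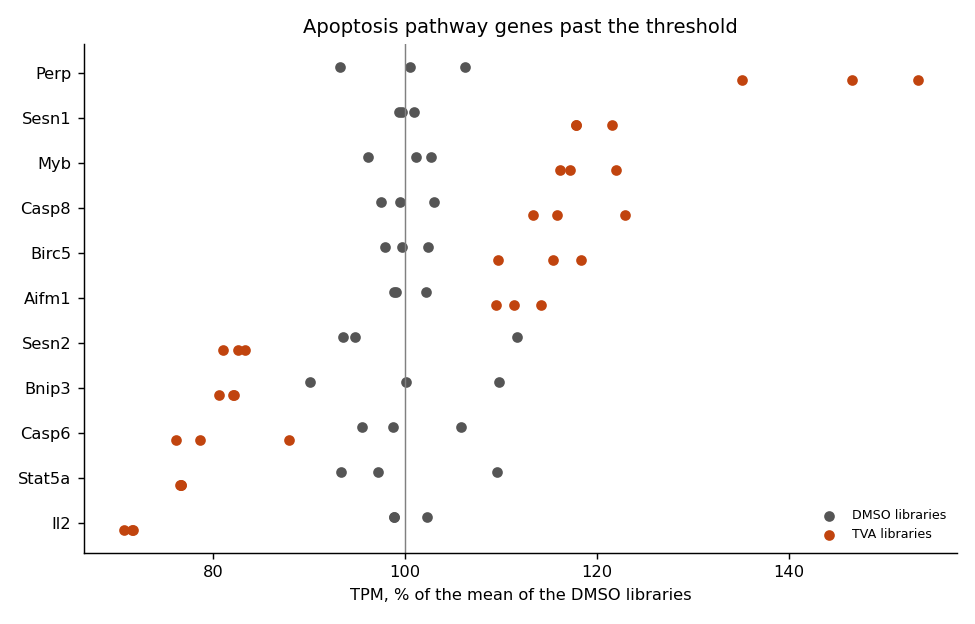
TPM of each library as a percentage of the mean of the DMSO libraries (x axis) for the 11 genes of the 5 pathway lists that passed the threshold, with DMSO libraries in grey and TVA libraries in orange-red. The groups are separate for all 11, from Il2, where the ratio of the means is 0.712, to Perp, where it is 1.45.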

How the data were processed

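Primary mouse CD8+ T cells treated with TVA (3 libraries) or DMSO (3 libraries) were grouped by sample title, and columns were matched by the names in the sample descriptions. The authors deposited TPM values per gene symbol, with 2 decimals, every library having an equal sum. STAR, RSEM and mm10 are named in the submitters' processing notes, without versions, and the labels name a SMARTER kit for mRNA. The annotation, strand use and filters are not given in the sources used here. TPM keeps no depth, so no counting interval is given.

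Genes with at least 1 TPM in at least 3 libraries were fitted as log2(TPM + 1), which understates the fold change of low genes, with limma 3.58.1 (R 4.3.3, variance trend, two-sided, Benjamini-Hochberg over all genes tested, threshold 0.05) and no replicate block. An exact permutation test of 3 against 3 cannot go below 0.1. The fit was tested on simulated data. The members and gene lists were chosen with earlier results of these data known, and 1 gene of the lists is not reported here and was left out of their counts. Named were the 10 members, each listed gene past the threshold, the 2 most abundant genes of each list, and the 5 genes (mean of at least 5 TPM) most like the member with the smallest p. GC content was the median over GENCODE vM21 transcripts (97.4% of genes tested matched by symbol), and its correction was a loess curve (span 0.5) within each library. Alternatives were a pseudocount of 0.1, all genes above 0 TPM, a filter at a mean of 10 TPM, quantile normalization, scaling by median ratios, no variance trend, a replicate block, the GC correction and each library left out. Figures were drawn with matplotlib 3.10.9.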

Additional observations from a re-analysis of the deposited data

How the results depend on the processing

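The count of members past the threshold, 0 with all 6 libraries, was 1 under scaling by median ratios and 1 under quantile normalization (Bbc3, lower, both times), 2 after the GC correction (Bak1 higher, Bcl2 lower) and 0 to 2 with a library left out (2 without DMSO replicate 2, Bbc3 and Mcl1, both lower). The other BCL2 family genes, 1, fell to 0 with all genes above 0 TPM, under both scalings, without the variance trend and with the replicate block, and ran from 0 to 1 with a library left out. The apoptosome, caspase and IAP genes, 3, gave 0 with all genes above 0 TPM, 1 without the trend, 0 with the block and 0 to 8 with a library left out (8 without DMSO replicate 2). Death receptor genes, 1, gave 0 with the block and 0 to 1 with a library left out. The p53 targets, 3, gave 1 with the block, 5 after the GC correction and 1 to 5 with a library left out. The regulators, 3, gave 5 after median-of-ratios scaling, 5 after the GC correction and 1 to 7 with a library left out. The cause was not tested.

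Signs turned for Bcl2l11 after median-of-ratios scaling (-0.0095) and the GC correction (-0.016), for Bax (0.046), Bad (0.071) and Bbc3 (0.25) after the GC correction, for Pmaip1 without DMSO replicate 3 (0.00033), for Bid without DMSO replicate 1 (0.0010), and for Bad without DMSO replicate 1 (0.089) or TVA replicate 1 (0.050). With a library left out, the log2 change of Pmaip1 ran from -0.097 to 0.00033, that of Bad from -0.076 to 0.089 and that of Bid from -0.11 to 0.0010. Vdac2 (-0.0011) and Ccng1 (-0.039) turned after the GC correction. Over the 10 members, 125 of 140 values under alternatives kept both sign and call, 6 newly passed and 9 had the opposite sign. Over the 20 other named genes, 219 of 280 values kept both, 59 no longer passed and 2 had the opposite sign. After the GC correction, applied to the ratios after seeing the data, the log2 change of Mcl1 to Bbc3 turned to -0.35. That of Bcl2 to Bax was -0.22 and that of the survival to the death genes -0.12. Mcl1 to Pmaip1 turned from -0.034 to 0.087, and its groups no longer overlapped. With a library left out, each of the 6 ratios moved by less than the spread between libraries, and Mcl1 to Pmaip1 changed sign without DMSO replicate 1 (0.073 on the log2 scale).

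Deviations from the group mean correlated at 0.16, 0.035 and -0.077 between libraries of equal number, which leaves no pairing to use. With a replicate block 218 genes were called in place of 925. Higher and lower calls over all genes were 574 and 351, but 292 and 462 after median-of-ratios scaling and 357 and 418 after quantile normalization. The count over all genes was 494 with all genes above 0 TPM, 608 with a mean of at least 10 TPM, and 95 to 2211 with a library left out. Depth is unknown, so what it limits cannot be stated.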

Other observations

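Endog, a mitochondrial nuclease gene of the downstream list, was singled out after its values were seen. It had 21.8, 7.59 and 15.0 TPM in the DMSO libraries, against 7.38, 5.86 and 6.43 TPM in the TVA libraries. DMSO replicate 2 lay close to the TVA libraries, as for Bbc3, and the GC content of its transcripts was 64.3%. The log2 change was -0.96 (SE 0.31, limma adjusted p 0.0853).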
